A study of Mus musculus with 8 samples.

Results

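The 38 genes described here are 30 immediate-early genes and 8 heat shock genes, taken by gene symbol from a fixed list and measured by RNA-seq in sorted cells of the mouse mammary gland. All 38 were found among the 49671 genes of the table, and all 38 were among the 16900 genes with enough reads to be tested. They were read in 4 roles. These are 8 subunits of the AP-1 transcription factor, 9 factors of the EGR, NR4A, KLF and Myc families, 13 feedback regulators and secreted proteins, and 8 heat shock chaperones.

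Immediate-early genes are the first to be transcribed after a stimulus, because the factors that switch them on, such as serum response factor and CREB, are already present in the resting cell. Their products are transcription factors, which pass the signal on, and inhibitors, which end it: phosphatases of MAP kinases, the RNA-destabilising protein tristetraprolin and the cytokine signalling inhibitor Socs3. Heat shock genes are driven by heat shock factors when unfolded proteins accumulate. Both programmes are known to start while tissue is cut, digested and sorted.

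The study sequenced total RNA from mammary glands of female mice of mixed genetic backgrounds, in 8 libraries, with 2 in each of 4 groups. Cells negative for CD45, CD31 and CD140a, the antigens used to gate out blood, endothelial and stromal cells, were sorted as CD24+CD29low (luminal, 40000 cells) or CD24+CD29high (basal, 5000 cells). The CD1 groups were cells of CD1 mice, the controls. The DNp63 groups were GFP+ cells, sorted through the same gates, of mice labelled K8rtTA/TetOCre/Rosa26-DNp63-IRES-GFP. In these mice the promoter of keratin 8, a luminal keratin, drives the doxycycline-dependent activator rtTA, which switches on Cre, which opens a Rosa26 cassette for DNp63, the p63 isoform of basal cells, and GFP. The CD1 mice are not labelled as carrying any of these alleles. Strain, doxycycline and the GFP gate therefore go with the transgene and cannot be told apart from it. The mice's ages and the induction schedule of this cross were not given in the sources used here. Labels leave unsaid whether libraries of 1 group are from different animals, so a p-value measures only the spread between libraries, which may be technical.

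Recovered depth was 4136998 to 7206729 reads per library. Trp63, the gene of the transgene, stood at 61 and 45 in CD1 luminal and 1297 and 1460 in DNp63 luminal cells. In the basal gate it stood at 5457 and 7079 without and 8088 and 8306 with the transgene. Values here and below are reads scaled to 20000000 per library, and reads of the cassette and of the endogenous gene are counted together. Between the CD1 gates, all 10 luminal markers were lower and all 10 basal markers higher in the basal gate. The basal gate also held RNA of other cells. The summed value of 16 endothelial markers was 3979 to 5295 in the 4 luminal libraries and 52437 to 76565 in the 4 basal ones, although CD31+ cells had been gated out. None of these 16 markers was at 0 in any library. Vwf alone gave 1442 to 2837 of the luminal sums. The 10 pericyte markers summed to 4468 to 6258 in the luminal and 19165 to 26339 in the basal libraries, and the 10 adipocyte markers to 848 to 2449 and 19680 to 34691. Single genes made up much of these sums. Most of the luminal pericyte sum was Notch3, at 3757 to 5255. Most of the basal adipocyte sum was Fabp4, at 13967 to 21865, while Adipoq stood at 37 to 160 there. The 10 fibroblast markers summed to 9854 and 49858 in CD1 luminal and 19411 and 11601 in DNp63 luminal libraries, and in the basal gate to 49035 and 73085 for CD1 and 106971 and 129499 for DNp63.

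The upstream sequences of 6 members whose values are given below are printed here. They are Fos, Socs3, Dusp5 and Dusp1, which differed in the luminal gate, and the near-identical heat shock pair Hspa1a and Hspa1b. The element marked in Fos is of the core promoter, and those in the others belong to signalling or heat shock pathways. Sequences are the RefSeq promoter windows on GRCm38.p6, 5′ to 3′ on the gene's strand, ending at the RefSeq start or short of it where a GENCODE exon of the gene reaches in. Capitals mark the TATA box of Fos, a STAT motif in Socs3, 2 adjoining CArG boxes (the serum response factor site) in Dusp5, a cAMP response element in Dusp1 and a heat shock motif in both Hspa1 genes.
Fos (chr12:85473640-85473889, plus strand): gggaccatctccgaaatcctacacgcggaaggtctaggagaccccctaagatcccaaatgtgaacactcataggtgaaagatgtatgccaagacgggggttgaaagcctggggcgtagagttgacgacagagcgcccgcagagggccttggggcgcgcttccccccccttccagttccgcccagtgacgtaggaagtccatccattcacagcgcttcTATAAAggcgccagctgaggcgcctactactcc
Socs3 (chr11:117969452-117969616, minus strand): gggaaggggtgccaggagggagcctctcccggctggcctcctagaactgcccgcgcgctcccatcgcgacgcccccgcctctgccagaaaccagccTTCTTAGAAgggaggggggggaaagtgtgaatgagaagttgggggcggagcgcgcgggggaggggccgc
Dusp5 (chr19:53528895-53529108, plus strand): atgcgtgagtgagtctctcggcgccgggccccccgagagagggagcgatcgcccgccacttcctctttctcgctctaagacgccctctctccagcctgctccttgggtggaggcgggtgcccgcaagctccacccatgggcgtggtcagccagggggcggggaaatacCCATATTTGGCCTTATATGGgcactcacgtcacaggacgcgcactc
Dusp1 (chr17:26508520-26508722, minus strand): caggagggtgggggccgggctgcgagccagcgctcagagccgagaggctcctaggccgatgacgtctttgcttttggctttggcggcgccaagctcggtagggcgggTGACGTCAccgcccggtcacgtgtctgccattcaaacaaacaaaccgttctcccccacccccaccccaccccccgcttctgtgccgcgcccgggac
Hspa1b (chr17:34959239-34959488, minus strand): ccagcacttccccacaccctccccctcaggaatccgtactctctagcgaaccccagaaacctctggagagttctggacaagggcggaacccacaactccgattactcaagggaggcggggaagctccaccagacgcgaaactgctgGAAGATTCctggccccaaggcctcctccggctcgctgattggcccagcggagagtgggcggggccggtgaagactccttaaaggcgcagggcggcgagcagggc
Hspa1a (chr17:34972157-34972406, minus strand): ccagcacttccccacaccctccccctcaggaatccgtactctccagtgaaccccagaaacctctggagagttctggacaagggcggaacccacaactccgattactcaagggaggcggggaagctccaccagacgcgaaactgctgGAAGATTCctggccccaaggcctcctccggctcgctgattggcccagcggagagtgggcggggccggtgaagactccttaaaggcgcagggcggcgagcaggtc

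Of the 38 members, 30 matched at least 1 of the 32851 RefSeq windows, each searched over 250 bases upstream of the start on both strands, apart from the TATA box. The motifs were chosen after values had been seen. Matches describe letters and show no binding. Bases farther upstream were not searched, so a motif missing here may lie outside the window. Egr1, Egr3, Fosl1, Hsp90aa1, Hspa8, Ier2, Myc and Nfkbiz had no window. The heat shock motif (TTCNNGAA or GAANNTTC) was present in 5 of 6 heat shock members with a window, against 12.8% of all windows, and in 4 of 24 immediate-early members. These 5 are not separate sequences. Hspd1 and Hspe1 lie on opposite strands, and their windows overlap and hold the same matches. Those of Hspa1a and Hspa1b are near copies. The EGR motif GCGNGGGCG was found in 9 of 24 immediate-early members, Socs3 among them, against 4.7% of windows. The CArG box was found in 3 of 24 (Dusp5, Egr2 and Zfp36), against 1.47% of windows. These members are counted once, and by window it was in 6 of 28, several of them of Egr2. The cAMP response element TGACGTCA was found in 2 of 24 (Btg2 and Dusp1), against 1.55%. A STAT motif, TTCNNNGAA, was found in 2 of 24 (Socs3 and Zfp36), against 7.02%, and TATAAA in 3 of 24 (Btg1, Cyr61 and Fos), against 7.59%. The AP-1 motif TGANTCA was in 0 of 24, against 6.75%. In the Hspa1a and Hspa1b windows 3 of 250 positions differed.

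Immediate-early RNA was abundant in every library. Together the 30 genes made up 2.44% and 2.59% of the reads in CD1 luminal and 1.59% and 1.59% in DNp63 luminal cells. In the basal gate they made up 2.90% and 3.12% for CD1 and 2.29% and 2.30% for DNp63. Both DNp63 groups lay below the CD1 group of the same gate, with no overlap of libraries. The 8 heat shock genes took 0.253% and 0.228%, 0.302% and 0.289%, 0.268% and 0.261%, and 0.305% and 0.279% for CD1 luminal, DNp63 luminal, CD1 basal and DNp63 basal, so that both DNp63 groups lay above. Between DNp63 and CD1 libraries of the same gate the sums of the immediate-early and the heat shock genes thus differed in opposite directions, while between the CD1 gates both sums were higher in the basal libraries. Over the 8 single heat shock genes the median log2 difference of DNp63 from CD1 was 0.38 in the luminal gate, with 7 above 0 and 1 below. In the basal gate it was 0.15, with 6 above and 2 below. Only Hspa1b passed the test in each gate, as given below.

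**Figure D1:**
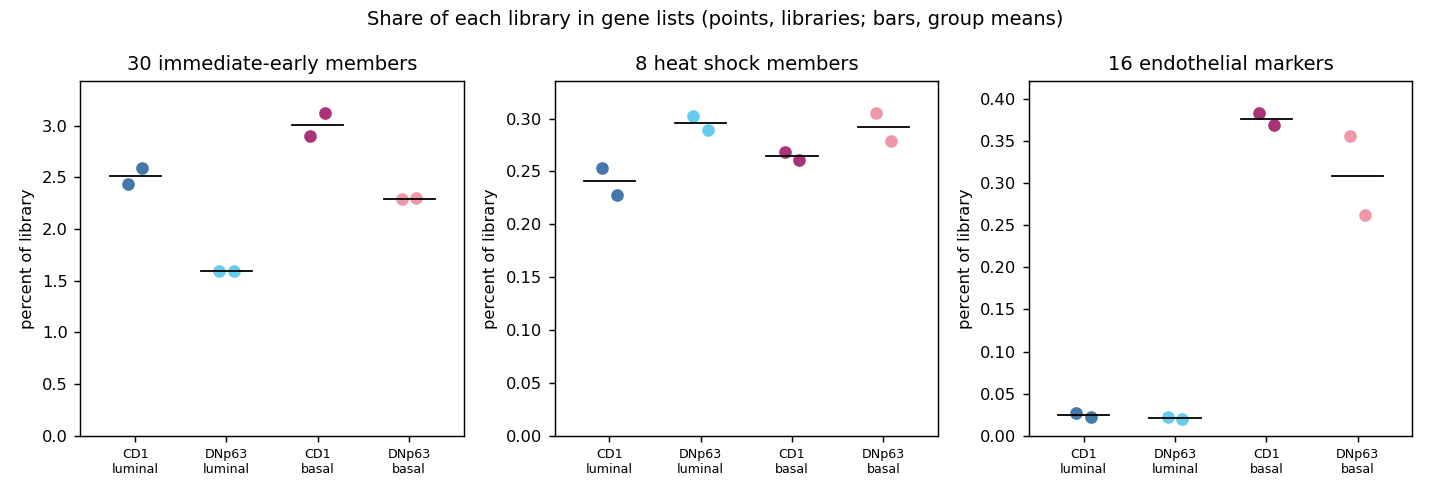
Share of each library, in percent of its reads, taken by the 30 immediate-early members, the 8 heat shock members and 16 endothelial markers, with the 4 groups on the horizontal axis. Points are libraries and bars are means of the 2 libraries of a group. The immediate-early share is lowest in DNp63 luminal cells (1.59% in both libraries), and endothelial markers are high in the basal gate. The heat shock share is higher in DNp63 than in CD1 libraries of either gate, in the basal gate mostly through Hspa1a and Hspa1b.

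Per kilobase of exon, Fos was the most abundant member in all 4 groups, with means of 24000 (CD1 luminal), 10800 (DNp63 luminal), 36600 (CD1 basal) and 25000 (DNp63 basal). In CD1 luminal cells its AP-1 relatives Fosb (16300) and Jun (14500) followed, then Klf6 (11100), Nfkbia (10300) and Atf3 (10200). In CD1 basal cells Egr1 came next (18700), ahead of Jun (14100), Fosb (12000) and Junb (11300). The lowest member in CD1 luminal cells was Egr2, at 128 per kilobase, which reached 2010 in CD1 basal cells. Among the chaperones Hspa8 and Hspb1 had the highest values in every group, with 39.4% and 50.1% of their 50-base stretches shared with other genes, so that these levels are uncertain. Hspa8 stood at 3820 and Hspb1 at 3510 in CD1 luminal cells, and at 4410 and 4660 in DNp63 luminal cells. The order of neighbours this close was not tested.

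The first comparison asked how luminal cells with the DNp63 transgene differ from CD1 luminal cells. Of the 30 immediate-early members, 15 fell and 0 rose in DNp63 luminal cells, and 1 of the 8 heat shock members, Hspa1b, rose. Differences are of log2(value + 8), with Benjamini-Hochberg adjustment over all genes in limma, called at an adjusted p under 0.05. Against these 15 of 38 members called lower and 1 called higher, 1.76% of all genes tested were called lower and 2.58% higher, 4.34% in all. Most members are abundant. Among the 4200 genes with a mean at least that of the lowest member, Hspe1, 3.52% were lower and 1.98% higher. The median difference was -0.63 over the 30 immediate-early members and 0.38 over the 8 heat shock members, against 0 over all genes. In bulk RNA, fewer cells expressing a gene and less RNA per cell cannot be told apart.

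Of the AP-1 genes, which encode the Fos and Jun partners of a dimeric transcription factor, 5 of 8 fell and 0 rose, with a median of -0.70. Fos stood at 59459 and 53378 in CD1 luminal and at 23875 and 26904 in DNp63 luminal libraries. Every DNp63 luminal library was below both CD1 ones, at 43% of the CD1 level on the fitted scale (log2 difference -1.22 ± 0.13 SE, adjusted p = 0.00234). Fosb, the Fos relative with a short and a long isoform, stood at 92969 and 110737 against 53312 and 56776 (-0.95 ± 0.15, adjusted p = 0.011). Atf3, a stress-induced partner and repressor, stood at 21520 and 22379 against 12814 and 14735 (-0.74 ± 0.12, adjusted p = 0.0131). For both the libraries of the 2 groups did not overlap. Jun and Junb also fell, by 0.73 and 0.67 on the log2 scale. Fosl1, Fosl2 and Jund were not called, with differences of -0.36, -0.06 and -0.32.

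In the EGR, NR4A, KLF and Myc group 1 of 9 fell, Klf2. Klf2, a zinc finger factor best known from endothelium and lymphocytes, stood at 4688 and 4816 in CD1 luminal and 2321 and 2536 in DNp63 luminal libraries (-1.03 ± 0.15, adjusted p = 0.00833). The other 8 differed by -0.55 (Egr1) to 0.09 (Egr3) and were not called. Egr3 was uneven between the CD1 luminal libraries, at 1419 and 467. Of the 16 endothelial markers 0 were called here by limma on log2 values or by voom, its fit of recovered reads, and at an unadjusted p under 0.05 6 were lower and 1 higher. They summed to 5295 and 4344 in CD1 luminal and 4396 and 3979 in DNp63 luminal libraries. Of these sums Vwf gave 2837 and 1442 against 1735 and 1456. The part of endothelial cells in the Klf2 difference was not tested.

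Of the feedback and secreted genes 9 of 13 fell, 0 rose, and all 13 differences were below 0, with a median of -0.83. Cyr61, a matricellular protein that responds to serum and to YAP, stood at 16016 and 17930 in CD1 luminal and 7199 and 5435 in DNp63 luminal libraries (-1.50 ± 0.16, adjusted p = 0.00225). Socs3, which shuts off JAK and STAT3 signalling from the IL-6 receptor family, stood at 5929 and 7847 against 2884 and 2802 (-1.33 ± 0.17, adjusted p = 0.00387). Dusp5, a nuclear ERK phosphatase, stood at 5730 and 5031 against 2493 and 2645 (-1.13 ± 0.13, adjusted p = 0.00253). In all 3 genes the lower CD1 library exceeded the higher DNp63 library. Tristetraprolin (Zfp36), the stress-induced phosphatase Dusp1, Ier2, Ier3, Btg2 and the atypical IκB Nfkbiz made up the other called genes, from 50.0% (Zfp36) to 65.6% (Ier2) of the CD1 level on the fitted scale. Not called were the ERK phosphatase Dusp6 (-0.29), the antiproliferative gene Btg1 (-0.32), the NF-κB inhibitor Nfkbia (-0.54) and Ier5 (-0.65, adjusted p = 0.0696).

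The heat shock genes went the other way or did not pass. Hspa1b, 1 of the 2 stress-inducible Hsp70 genes, stood at 3163 and 3886 in CD1 luminal and 7804 and 7000 in DNp63 luminal libraries, a 2.01-fold rise (1.01 ± 0.16, adjusted p = 0.0104). Its neighbour Hspa1a stood at 593 and 1112 against 1469 and 1147 (0.61 ± 0.35, adjusted p = 0.435). It was not called, although both DNp63 libraries were above both CD1 ones. The mitochondrial chaperonin partners Hspe1 (0.71) and Hspd1 (0.40), the small heat shock protein Hspb1 (0.37), constitutive Hsp70 (Hspa8, 0.16), Hsp90aa1 (0.13) and the Hsp40 gene Dnajb1 (-0.16) were not called. Without CD1 luminal replicate 1, Hspe1 and Hspd1 were called higher as well. Of the 50-base stretches of the Hspa1b transcripts 62.3% also occur in other genes, chiefly Hspa1a, and 66.3% of those of Hspa1a. How such reads were counted was not given in the sources used here, so the split of reads between these genes is uncertain.

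The calls in the luminal gate rest on a spread shared among the 4 groups and on both DNp63 luminal libraries. Fitted with the 4 luminal libraries alone, 42 genes of the table were called and 0 members, and without DNp63 luminal replicate 1 or 2 the lower calls were 7 and 5 of 38. Counted over the alternative settings, Ier2 lost its luminal call in 11, Btg2 in 8 and Jun in 5. Fos, Cyr61, Socs3 and Dusp5 each lost it in 1, and the remaining called members in 2 to 4. No direction of a called member changed under any alternative.

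**Figure D2:**
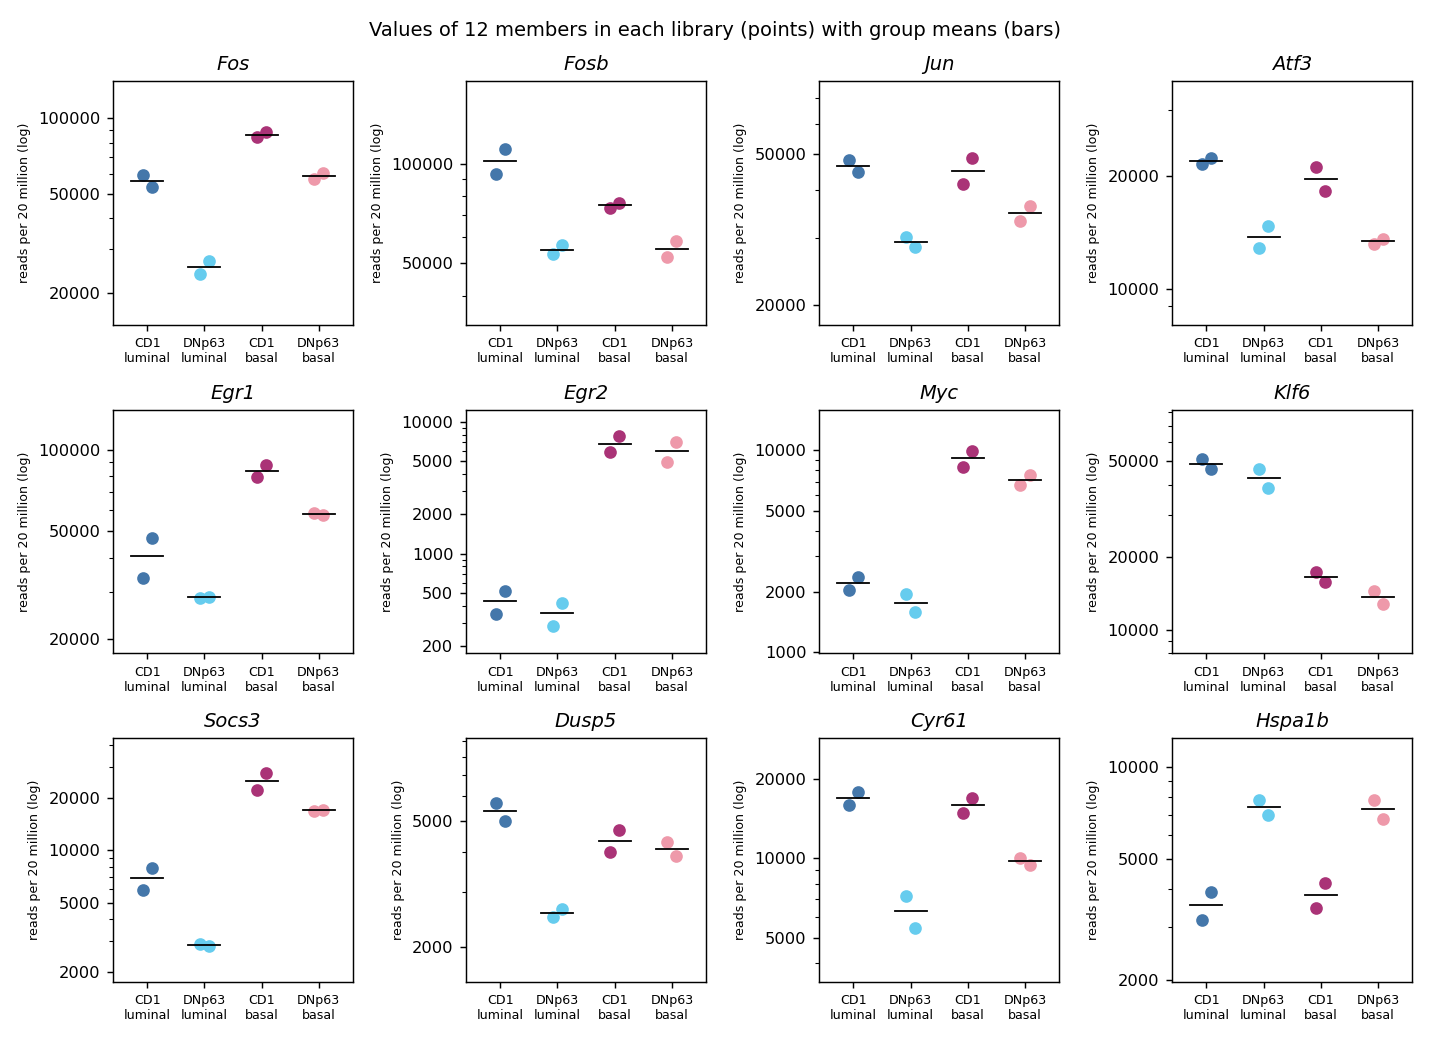
Values of 12 members in each library on logarithmic axes (reads scaled to 20000000 per library), with the 4 groups on the horizontal axis; points are libraries and bars are group means. Fos and Socs3 are lowest in the DNp63 luminal libraries, and Hspa1b is higher in both DNp63 groups than in both CD1 groups.

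The genes around the members in the same pathways were read from fixed lists. Of 30 other feedback genes, 10 fell and 0 rose in DNp63 luminal cells, with a median of -0.54. Errfi1, the inhibitor of EGF receptor kinases also called Mig6, stood at 13793 and 16170 in CD1 luminal and 5956 and 4919 in DNp63 luminal libraries (-1.53 ± 0.18, adjusted p = 0.00309). Socs2, which limits STAT5 signalling from growth hormone and prolactin receptors, stood at 1224 and 1201 against 533 and 482 (-1.31 ± 0.16, adjusted p = 0.00364). For both genes the libraries of the groups stood well apart. Of 12 other immediate-early factors, 3 fell and 0 rose. Id1, an inhibitor of basic helix-loop-helix factors, stood at 135 and 186 against 31 and 36 (-2.06 ± 0.32, adjusted p = 0.00971). Nr4a3, the third NR4A receptor, stood at 2295 and 3909 against 1391 and 1358 (-1.18 ± 0.23, adjusted p = 0.0253). Of 8 tested AP-1 partners, 1 fell, the small Maf protein gene Maff, at 3546 and 4201 against 2151 and 2121 (-0.92 ± 0.14, adjusted p = 0.00833).

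Of the 13 factors and kinases that act upstream, such as Srf, the ternary complex factors and the MAP kinases, 0 were called in the luminal gate by limma or voom, 1 was higher and 1 lower at an unadjusted p under 0.05, and the differences ran from -0.64 to 0.41. Of 11 tested genes of the IL-6 family input to Socs3, 1 rose and 0 fell: the kinase gene Jak2 stood at 3539 and 3601 in CD1 luminal and 5415 and 5506 in DNp63 luminal libraries (0.55 ± 0.11, adjusted p = 0.0335). Of 27 tested heat shock factors and cytosolic chaperones, 4 rose and 0 fell. Hspa4l, an Hsp110 relative, stood at 1167 and 990 against 2407 and 2493 (1.12 ± 0.16, adjusted p = 0.00724). Its libraries did not overlap between the groups. Hspa2 and Hsph1 also rose. Of 4 tested small heat shock protein genes and 14 mitochondrial and endoplasmic reticulum chaperones, 0 were called by limma or voom. At an unadjusted p under 0.05, 1 small heat shock gene was higher and 1 of the 14 lower.

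The 13 rows of the immune marker list had a lower sum in DNp63 luminal cells, while the median difference of the 9 tested was -0.08, with 3 above 0 and 6 below. They summed to 12649 and 11015 in CD1 luminal and 4229 and 5768 in DNp63 luminal libraries, and most of that sum was Cd14 (11372 and 9447 against 2987 and 3655). Ptprc, which encodes CD45, stood at 47 and 75 against 48 and 71, and 0 of the 9 rows tested were called in limma, with 2 lower at an unadjusted p under 0.05 and 1 lower in voom. A second row of Itgam was at 0 in every library. The pericyte sums were 6258 and 5836 against 5272 and 4468, and most of each was Notch3 (5255 and 4805 against 4516 and 3757). Of 10 fibroblast markers 1 was lower, Dcn. The part of these cells in the result was not tested.

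In the basal gate the same contrast gave 1 called member. Hspa1b stood at 3448 and 4180 in CD1 basal libraries, against 7798 and 6749 in DNp63 basal ones, a difference of 0.95 ± 0.16 (1.93-fold, adjusted p = 0.0457). The 2 DNp63 libraries were both above the 2 CD1 libraries, at levels close to those of the luminal gate. The call was lost in 9 of the 17 alternatives, where the adjusted p ranged from 0.0211 to 0.324 and the difference from 0.78 to 1.11. Hspa1a stood at 843 and 1454 against 3229 and 2316 (1.32 ± 0.35, adjusted p = 0.183). Hspa1a was not called, although its libraries did not overlap, and the 2 within each group differed.

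Of the 30 immediate-early members, 0 were called higher or lower in DNp63 basal cells. Over all 38 members 1 was called higher and 0 lower, where 0.195% of genes were called higher, 0.408% lower and 0.604% in either direction. At an unadjusted p under 0.05, 15 members were lower and 3 higher, and voom called 0 in either direction. The median difference of the 30 was -0.34, and 23 of 30 were below 0. Fos stood at 84061 and 88206 in CD1 basal libraries, against 56990 and 60455 in DNp63 basal ones (-0.53 ± 0.13, adjusted p = 0.153). Socs3 stood at 22259 and 27614 against 16825 and 17037 (-0.53 ± 0.17, adjusted p = 0.263). For both genes each DNp63 basal library was below each CD1 basal one. With 2 libraries a group such an order also arises without a difference, and neither gene was called. The lowest difference was that of Cyr61 (-0.68, adjusted p = 0.132). Without either CD1 luminal library, which enters this comparison only through the scaling and the shared spread, Zfp36 and Nfkbiz were called lower.

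In the pathway lists Klf5, a KLF factor of proliferating epithelium, was called higher in DNp63 basal cells. It stood at 2903 and 2883 in CD1 basal libraries, against 4873 and 5048 in DNp63 basal ones (0.79 ± 0.11, adjusted p = 0.0189). The groups did not overlap for this gene. In 6 of the other pathway lists there were 0 called genes in limma and voom, and among the 30 other feedback genes 9 were lower and 0 higher at an unadjusted p under 0.05. Beside these values, 0 of 16 endothelial markers were called by limma or voom, 1 was lower at an unadjusted p under 0.05, and all 16 differences were below 0. The endothelial sums were 76565 and 73924 in CD1 basal libraries, against 71242 and 52437 in DNp63 basal ones. Of 10 luminal markers 7 were lower in DNp63 basal cells. Of 10 fibroblast markers 0 were called by limma or voom, 3 were higher at an unadjusted p under 0.05, and 9 differences were above 0, with a median of 1.25. Their sums were 49035 and 73085 in CD1 basal libraries, against 106971 and 129499 in DNp63 basal ones. Whether these cells contribute to the lower immediate-early values was not tested.

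Set side by side, the DNp63 minus CD1 differences of the 2 gates, which share no libraries, had the same sign in 30 of 38 members, 23 of 30 immediate-early and 7 of 8 heat shock. Across the 38 members, which are not independent replicates, Pearson's r was 0.73 and Spearman's rho 0.68. Within the 30 immediate-early members r was 0.49. In 28 of these 30 the luminal difference was the lower one. The difference between the gates was itself tested as an interaction. In limma 0 of 38 members were called, where 0.331% of all genes were. At an unadjusted p under 0.05, 10 members had a less negative or higher difference in the basal gate and 0 the reverse, and voom called 0. The nearest to the threshold were Dusp5 (1.06 ± 0.18, adjusted p = 0.0583), Dusp1 (0.90 ± 0.15, adjusted p = 0.0612) and Klf2 (1.15 ± 0.22, adjusted p = 0.0791). Dusp1 stood at 12520 and 12407 in CD1 luminal and 7224 and 6844 in DNp63 luminal libraries. Its basal values were 18999 and 18608 for CD1 and 19965 and 17535 for DNp63. Its values were thus split in the luminal gate and overlapped in the basal gate. For Socs3 the interaction was 0.79 ± 0.23 (adjusted p = 0.227) and for Hspa1b -0.06 ± 0.22 (adjusted p = 0.971). With the replicate number as a block within each strain, chosen after the data were seen, 6 of 38 members were called, all higher: Dusp5 (adjusted p = 0.016), Klf2 (0.0166), Dusp1 (0.0168), Socs3 (0.0286), Fosl1 (0.035) and Cyr61 (0.0425). That fit called 456 genes and leaves 2 residual degrees of freedom, and the labels do not say that the numbers pair libraries. Without the block Dusp5 passed with a pseudocount of 32 or without CD1 luminal replicate 2, and Dusp1 without CD1 luminal replicate 1.

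**Figure D3:**
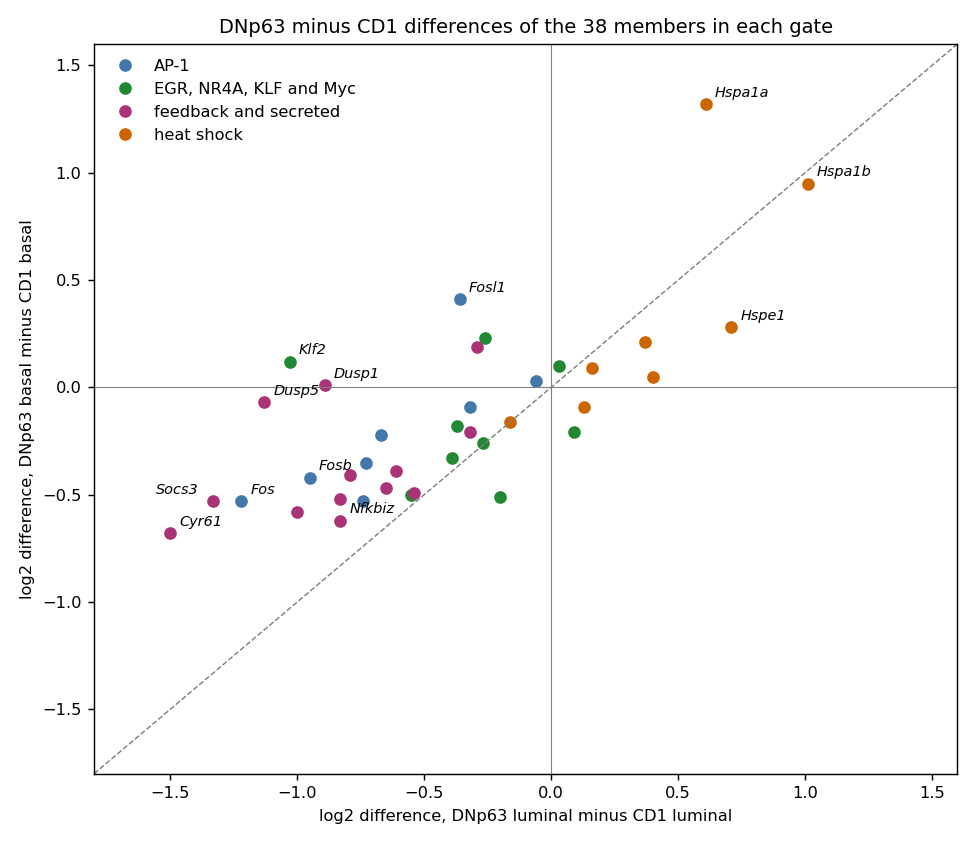
Log2 differences between DNp63 and CD1 cells for the 38 members, in the luminal gate on the horizontal and the basal gate on the vertical axis, coloured by role; the dashed line marks equal differences. Most immediate-early points lie left of 0 and above the line, and Hspa1a and Hspa1b lie at the upper right.

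The second question was how the members differ between basal and luminal cells without the transgene. In CD1 basal cells 16 members were called higher and 7 lower than in CD1 luminal cells, all 23 of them immediate-early genes. Over all genes 24.0% were called higher, 20.4% lower and 44.4% in either direction, so that a call is common in this comparison. Of the 4200 genes at least as abundant as Hspe1, 53.3% were called. The 30 immediate-early members had a median difference of 0.45, and the 8 heat shock members 0.08. Of the 8, 0 were called by limma or voom and 1 was higher at an unadjusted p under 0.05. With the replicate number as a block within each strain, chosen after the data were seen, Hspa1a, Hspa8 and Hspb1 were called higher and Dnajb1 lower. The heat shock differences ranged from -0.39 to 0.46, and they depended on the CD1 luminal libraries. Without replicate 1 of these, Hspa8 and Dnajb1 were called, and without replicate 2 Hspb1, Hspe1 and Hspd1 were.

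The EGR, NR4A, KLF and Myc genes had the widest differences, with 7 of 9 higher, 1 lower and a median of 1.66. Egr2, a zinc finger factor of the EGR family, stood at 348 and 523 in CD1 luminal and 5883 and 7745 in CD1 basal libraries, a 15.3-fold difference (3.94 ± 0.28, adjusted p = 1.7e-05). The orphan nuclear receptor Nr4a2 stood at 972 and 1371 against 5764 and 4895 (2.17 ± 0.20, adjusted p = 6.34e-05). Myc stood at 2039 and 2357 against 8305 and 9945 (2.02 ± 0.16, adjusted p = 3.09e-05). In all 3 the basal libraries were several times above both luminal ones. Egr1, Egr3, Nr4a1 and Klf4 were also higher, by 0.33 (Klf4) to 1.97 (Egr3) on the log2 scale, and Klf4 lost its call in 10 of the 17 alternatives. Klf6 was the exception and was lower, at -1.59 ± 0.14 (adjusted p = 4.72e-05). Klf2 was not called (0.26, adjusted p = 0.197).

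The AP-1 genes were divided, with 3 higher and 3 lower of 8. Junb, a Jun relative that often opposes Jun, stood at 13293 and 13744 in CD1 luminal and 23971 and 27894 in CD1 basal libraries (0.91 ± 0.12, adjusted p = 0.000439). Jund, the Jun relative of resting cells, stood at 3571 and 4324 against 2152 and 2316 (-0.84 ± 0.16, adjusted p = 0.00289). Fosl1, which encodes Fra-1, stood at 2901 and 2401 against 1754 and 1378 (-0.78 ± 0.15, adjusted p = 0.00329). Of the 3, Junb was higher and Jund and Fosl1 lower in every basal library. Fos and Fosl2 were higher by 0.59 and 0.70 and Fosb was lower, at -0.46, while Jun (-0.07) and Atf3 (-0.19) were not called. Fosb lost its call in 7 of the 17 alternatives, and Fos without CD1 basal replicate 2 (adjusted p = 0.0759). Part of the Jund and Fosl1 transcript sequence is shared with overlapping genes, 48.3% and 52.6% of 50-base stretches, and a strand setting was not given in the sources used here.

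Of the feedback and secreted genes, 6 of 13 were higher and 3 lower. Socs3 stood at 5929 and 7847 in CD1 luminal and 22259 and 27614 in CD1 basal libraries, a 3.57-fold difference (1.84 ± 0.17, adjusted p = 5.64e-05). Btg2, an antiproliferative p53 target, stood at 6769 and 8406 against 15158 and 17143 (1.07 ± 0.17, adjusted p = 0.00117). Nfkbia, which encodes IκBα, stood at 19878 and 13233 against 8790 and 7051 (-1.07 ± 0.19, adjusted p = 0.00228). None of these libraries overlapped between gates. Zfp36, Ier2, Dusp6 and Dusp1 were higher by 0.57 to 0.79, and Btg1 and Ier5 were lower, at -0.56 and -0.51. Ier5 lost its call in 7 of the 17 alternatives, Dusp6 in 3 and Btg1 in 1. Cyr61 (-0.12), Nfkbiz (-0.15), Ier3 (-0.27) and Dusp5 (-0.33) were not called.

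Between the CD1 gates 44.4% of all genes were called. The shares were 54.5% of the IL-6 input, 23.1% of upstream factors, 50% of other immediate-early factors and 60% of other feedback genes. They were 12.5% of AP-1 partners, 40.7% of cytosolic and 35.7% of mitochondrial and endoplasmic reticulum chaperones, and 100% of small heat shock genes. Around Socs3, 4 of 11 tested genes of the IL-6 family input were higher and 2 lower in CD1 basal cells. Il6 stood at 252 and 630 in CD1 luminal and 4377 and 3350 in CD1 basal libraries (3.21 ± 0.37, adjusted p = 0.000199). Lif went the other way, at 8737 and 3290 against 1099 and 232 (-3.40 ± 0.64, adjusted p = 0.00276). Both cytokines signal through the shared receptor chain Il6st, which was among the 4 higher genes with Lifr and Jak1. Of 13 upstream factors 3 were higher and 0 lower. Elk3, a ternary complex factor also known from endothelium, stood at 309 and 297 against 2285 and 2240 (2.85 ± 0.16, adjusted p = 5.34e-06), and Mkl1, a cofactor of serum response factor, at 1217 and 1116 against 1850 and 1689 (0.57 ± 0.12, adjusted p = 0.00589). In both the basal libraries lay above the luminal ones.

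Of 12 other immediate-early factors 5 were higher and 1 lower, with Id1 at 135 and 186 in CD1 luminal and 1397 and 1394 in CD1 basal libraries (3.05 ± 0.32, adjusted p = 0.000117). Egr4 was low throughout, at 11 and 12 against 120 and 112 (adjusted p = 0.00155), so few luminal reads that the size of the difference depends on the pseudocount. Of 30 other feedback genes 11 were higher and 7 lower. Ctgf, a YAP-responsive relative of Cyr61, stood at 132 and 63 against 3027 and 6021 (5.40 ± 0.38, adjusted p = 1.58e-05), where Cyr61 was not called. Arc stood at 497 and 404 against 9546 and 7262 (4.17 ± 0.21, adjusted p = 2.94e-06). Both were far above the luminal level in each basal library. Of 8 tested AP-1 partners 1 was lower, Batf, at 181 and 167 against 46 and 60 (-1.61 ± 0.28, adjusted p = 0.00198).

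All 4 tested small heat shock protein genes, Cryab, Hspb6, Hspb7 and Hspb8, were higher in CD1 basal cells, with a median of 2.12. Hspb8 stood at 327 and 223 in CD1 luminal and 1227 and 1330 in CD1 basal libraries (2.19 ± 0.31, adjusted p = 0.000629). Hspb7 was at most 4 in the luminal libraries and at 28 and 76 in the CD1 basal ones (adjusted p = 0.00359), and 1 read was worth 2.775 to 4.834, so its luminal level is that of at most 1 read. These genes are also known from muscle. Of 27 tested factors and cytosolic chaperones 5 were higher and 6 lower. Hspa2 stood at 862 and 601 against 2010 and 1961 (1.43 ± 0.18, adjusted p = 0.000351), and Hsph1, an Hsp110, at 1426 and 1075 against 3118 and 2647 (1.19 ± 0.16, adjusted p = 0.000479). Of 14 mitochondrial and endoplasmic reticulum chaperones 2 were higher and 3 lower. The higher ones were Ddit3, at 203 and 215 against 637 and 519 (1.40 ± 0.21, adjusted p = 0.000809), and Dnajb9, at 1281 and 956 against 2615 and 3039 (1.32 ± 0.18, adjusted p = 0.000517).

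Markers of other cells rose with the gate. Of 16 endothelial markers 15 were called higher in the basal gate of CD1 mice, with sums of 76565 and 73924 against 5295 and 4344, as were 9 of 10 pericyte and all 10 adipocyte markers, while 1 of 10 fibroblast markers was. Many of the members are also expressed in vessels, Klf2 and Klf4 among them. The part of these cells in the differences between gates was not tested.

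In DNp63 basal cells 20 members were higher and 4 lower than in DNp63 luminal cells, where 25.5% of all genes were higher, 23.0% lower and 48.5% in either direction. Of the 4200 abundant genes, 56.8% were called. Of the 24 called members, 23 were immediate-early genes. These 2 comparisons share no libraries, and across the 38 members r was 0.93 and rho 0.90. In both, 16 members were called higher and 4 lower (Jund, Klf6, Btg1 and Nfkbia). No member was called in opposite directions. Without further scaling of the deposited values the median of all genes in this comparison was -0.11, against -0.05 as fitted.

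Socs3 had the largest difference among the feedback genes, at 2884 and 2802 in DNp63 luminal and 16825 and 17037 in DNp63 basal libraries (2.63 ± 0.17, 6.20-fold, adjusted p = 6.32e-06). Dusp1 and Btg2 followed. Dusp1 differed by 1.47 ± 0.11 (adjusted p = 1.58e-05), and Btg2, at 5207 and 4011 against 12417 and 11506, by 1.45 ± 0.17 (adjusted p = 0.000195). In each of these genes the basal libraries were above the luminal ones with no overlap. Junb, at 8970 and 8776 against 21794 and 21978, differed by 1.36 ± 0.12 (adjusted p = 4.05e-05) and Fos, at 23875 and 26904 against 56990 and 60455, by 1.27 ± 0.13 (adjusted p = 9.51e-05). Fosl2, at 8354 and 8612 against 15097 and 13228, differed by 0.80 ± 0.14 (adjusted p = 0.00189). Egr2 stood at 281 and 423 against 4940 and 7015 (4.12 ± 0.28, adjusted p = 9.35e-06). Nr4a2, at 1052 and 1444 against 5442 and 5836, differed by 2.25 ± 0.20 (adjusted p = 4.23e-05), and Myc, at 1938 and 1585 against 6752 and 7504, by 2.08 ± 0.16 (adjusted p = 2e-05). All 9 EGR, NR4A, KLF and Myc genes were called, 8 of them higher.

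The members called in DNp63 cells and not in CD1 cells were Klf2, Dusp5, Cyr61 and Hspa1a, all higher in DNp63 basal than in DNp63 luminal cells. Klf2 stood at 2321 and 2536 against 7418 and 5202 (1.41 ± 0.15, adjusted p = 0.000124). Dusp5, at 2493 and 2645 against 4312 and 3873, differed by 0.73 ± 0.13 (adjusted p = 0.00163), and Cyr61, at 7199 and 5435 against 10056 and 9457, by 0.70 ± 0.16 (adjusted p = 0.00685). Hspa1a, at 1469 and 1147 against 3229 and 2316, differed by 1.13 ± 0.35 (adjusted p = 0.0249). For these 4 the gate difference in DNp63 cells less that in CD1 cells is the interaction, given above for Klf2 and Dusp5. It was 0.82 ± 0.23 (adjusted p = 0.199) for Cyr61 and 0.71 ± 0.49 (adjusted p = 0.711) for Hspa1a. None of the 4 was called with the main settings, and the alternatives that called some of them are given above. Cyr61 and Hspa1a lost the call between the DNp63 gates without DNp63 luminal replicate 2 or DNp63 basal replicate 1, as did Egr3 without DNp63 luminal or basal replicate 1. Hspa1b, by contrast, differed by 0.03 (adjusted p = 0.873) between the DNp63 gates. Fosb, Fosl1 and Ier5, called lower in CD1 basal cells, were not called here (0.07, -0.01 and -0.32).

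**Figure D4:**
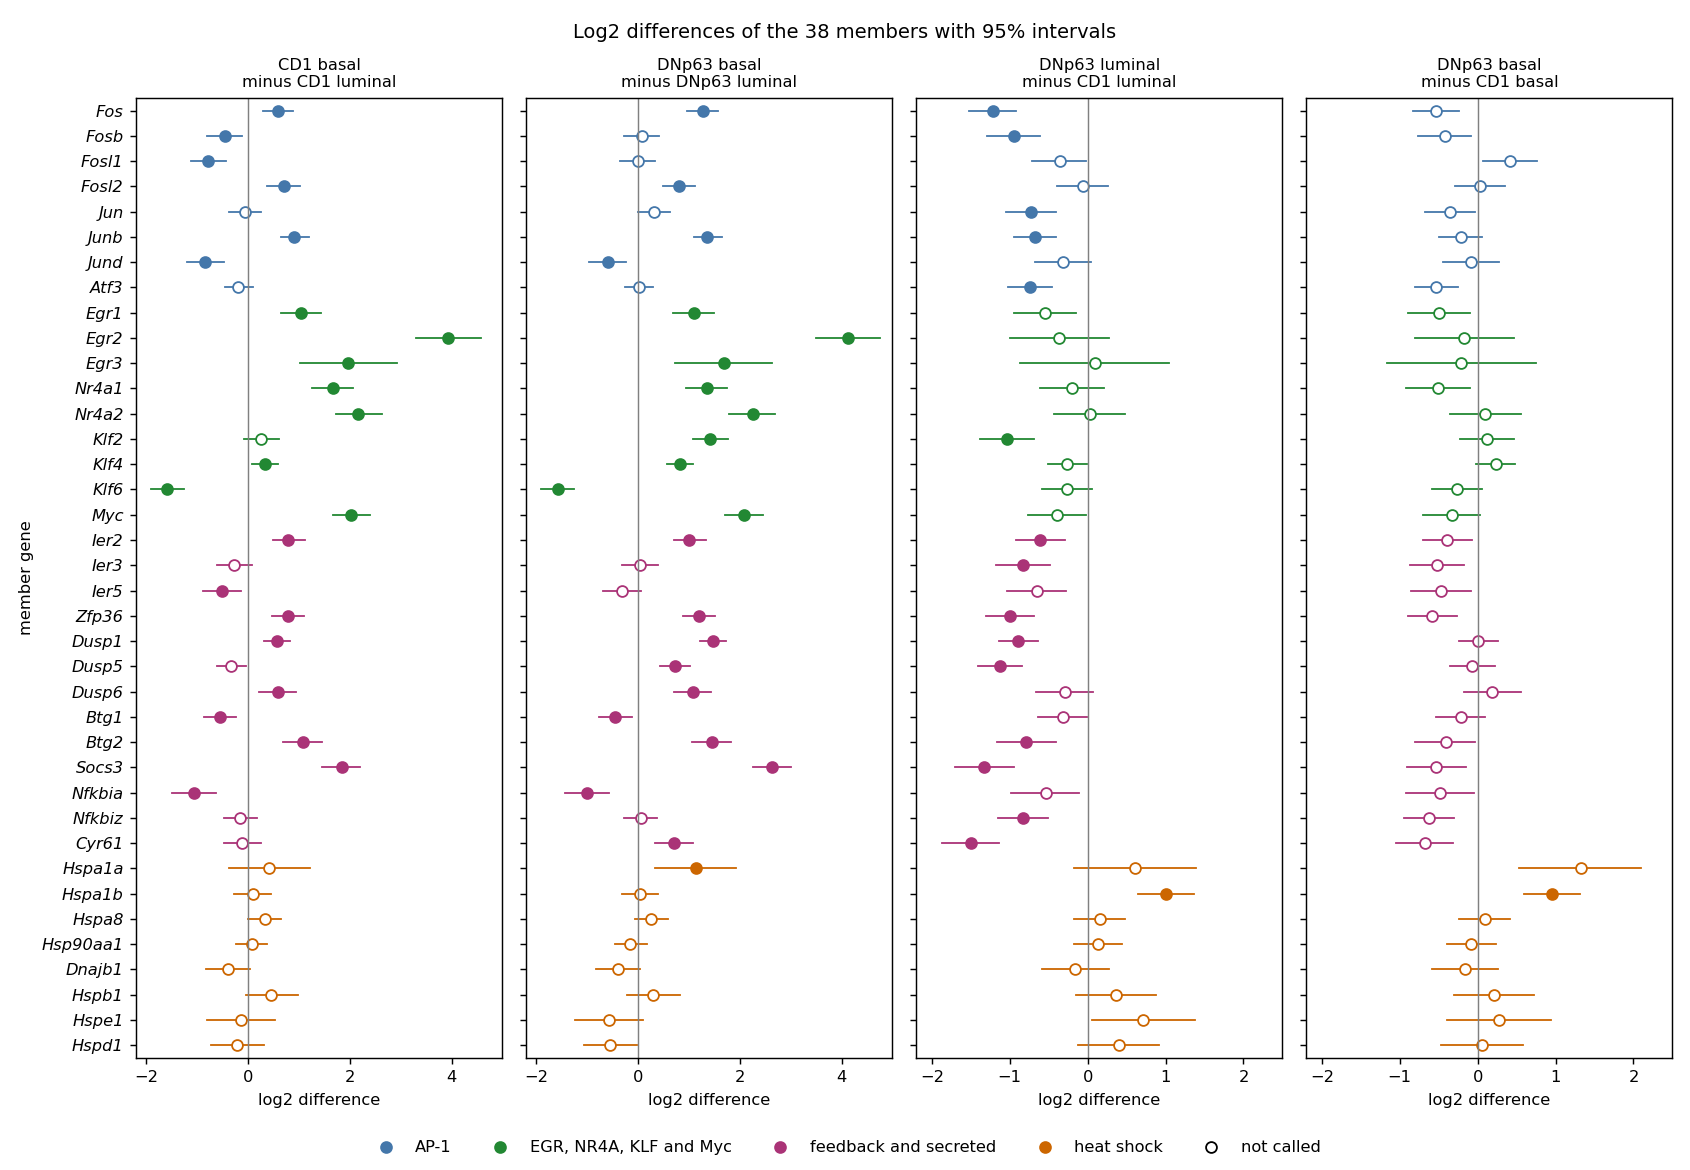
Log2 differences of the 38 members in the 4 comparisons, ordered by role; points are differences, bars their 95% confidence intervals, and filled points passed an adjusted p under 0.05. In the comparison of DNp63 with CD1 luminal cells most immediate-early points lie below 0 and Hspa1b above it, and Egr2 has the largest difference between the gates.

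The pathway lists are read here against the 48.5% of all genes called in either direction. Other feedback genes had 15 higher and 8 lower of 30, with Arc at 436 and 306 in DNp63 luminal and 9062 and 10100 in DNp63 basal libraries (4.74 ± 0.21, adjusted p = 1.31e-06) and Ctgf at 64 and 51 against 1935 and 1842 (4.92 ± 0.38, adjusted p = 1.88e-05). Other immediate-early factors had 7 higher and 1 lower of 12, and Id1 went from 31 and 36 to 1766 and 861 (4.96 ± 0.32, adjusted p = 6.81e-06). The IL-6 input had 7 higher and 3 lower of 11, with Il6 at 159 and 126 against 1417 and 1219 (3.20 ± 0.37, adjusted p = 0.000173). In each of these genes the basal libraries were above the luminal ones. The cytosolic chaperones had 5 higher and 10 lower of 27. Hspa4l was lower, at 2407 and 2493 against 928 and 798 (-1.44 ± 0.16, adjusted p = 0.000144), and the co-chaperone gene Bag3 higher, at 2193 and 2109 against 4965 and 5164 (1.29 ± 0.11, adjusted p = 3.14e-05). The small heat shock proteins were again 4 of 4 higher, the mitochondrial and endoplasmic reticulum chaperones 2 higher and 3 lower of 14, the upstream factors 2 higher and 2 lower of 13, and the AP-1 partners 2 higher and 0 lower of 8. The shares called in the last 3 of these lists, 35.7%, 30.8% and 25%, were below that of all genes. Of 16 endothelial markers 15 were higher in DNp63 basal cells, as were 9 of 10 pericyte and 9 of 10 adipocyte markers. Of 10 fibroblast markers 5 were called higher by limma and 7 by voom, and all 10 differences were above 0, with a median of 2.68. Fibroblast sums were 19411 and 11601 in DNp63 luminal libraries, against 106971 and 129499 in DNp63 basal ones. For all these cells their part in these differences was not tested.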

How the data were processed

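RNA was sequenced from 8 libraries of sorted mouse mammary cells. Per the submitters' processing notes, STAR and HTSeq were used with GRCm38 (mm10). Tool versions, annotation and strandedness were not given in the sources used here. Deposited values are scores: per the labels and the values, the authors scaled gene counts to 20000000 reads per library and rounded them to whole numbers. Columns summed to 20006569 to 20013862. Dividing by the value of 1 read (2.775 to 4.834) gave whole reads for 99.7% to 99.9% of values. Because the values are not counts, TMM scaling (30% and 5% trimmed) was applied, 8 was added, and limma 3.58.1 (R 4.3.3) was run on the log2 scale with 4 group means and an intensity trend (4 residual, 4.602 prior degrees of freedom). A gene was tested if 2 or more libraries reached 40, which left 16900 for two-sided tests with Benjamini-Hochberg adjustment. Scripts were tested on simulated data.

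Groups came from the labels' strain and surface markers. No replicate pair was identical, and within groups the chi-square per degree of freedom was 6.34 to 16.5, beyond sampling noise.

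The 38 members and all lists were chosen with earlier results of these data known. Values per library are given for Fos, Socs3 and Hspa1b, for up to 3 called members with the largest absolute difference in each comparison and role, and for up to 2 called genes of each pathway list and comparison. Dusp1, Klf2, Dusp5, Cyr61 and Hspa1a in comparisons outside that rule were named after their values were seen. Of 49671 gene IDs 49326 were in GENCODE M21, all 38 members among them. A few genes of the fixed lists are not reported here by name. Alternatives were other scalings, pseudocounts and filters, voom on recovered reads, a fit of the 2 groups compared, a replicate block, also within each strain (added after seeing the data), and leaving out each library.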

Additional observations from a re-analysis of the deposited data

How the results depend on the processing

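Over 17 alternatives, the block within strains aside, 982 of 1088 values for the 64 called member differences kept their call and direction, 106 lost the call and 0 reversed. In DNp63 against CD1 luminal cells, the fit of these 2 groups called 42 genes and 0 members higher or lower. Leaving out each library in turn gave 146 to 969 genes, 0 to 3 members higher and 5 to 16 lower there; the lowest counts came without a DNp63 luminal library. In DNp63 against CD1 basal cells, 60 genes were called with no filter, 54 with voom, and 0 members higher with a pseudocount of 2, no filter or voom. Without 1 library the counts were 3 to 184 genes, 0 to 1 members higher and 0 to 2 lower. Between CD1 gates members lower were 4 to 8 without 1 library. Between DNp63 gates they were 8 in the fit of the 2 groups and 2 to 7 without 1 library. The interaction called 103 genes and 1 member higher with a pseudocount of 32, 13 genes with no filter, 18 with voom, and 4 to 141 genes and 0 to 1 members higher without 1 library. The cause was not tested. Where 1 library is left out, the lone library is assumed to vary like the other groups.

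The replicate block gave 160 genes between DNp63 and CD1 basal cells and 111 in the interaction. It lost no member's call and added Ier5 in the luminal gate (lower) and Hspd1 between the DNp63 gates (lower). Deviations of same-numbered libraries correlated at 0.34 (the CD1 gates) and 0.27 (the DNp63 gates) and at -0.01 to 0.04 in the other 4 pairs of groups. The labels do not say that numbers pair libraries, and each gate comparison has 2 pairs. A replicate block within each strain, chosen after seeing the data, could be fitted for the gate comparisons and the interaction. It lost no member's call, gave 8 members lower between the DNp63 gates, and called 456 genes and 6 members higher in the interaction. Between the CD1 gates it added 4 heat shock members, Hspa1a, Hspa8 and Hspb1 (higher) and Dnajb1 (lower).

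With 2 libraries a group, small differences could not be detected. Depth limits Egr4 and Hspb7, whose luminal values are a few reads.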

Other observations

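Cyr61 and Ctgf, which encode related secreted proteins, differed in pattern. Ctgf stood at 132 and 63 in CD1 luminal and 3027 and 6021 in CD1 basal libraries, and Cyr61 at 16016 and 17930 and at 14938 and 16891.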
